A study of Mus musculus with 7 samples.

Results

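The subject is a set of 10 transcripts of mucosal defence in the mouse lung: Pigr, which encodes the transporter of immunoglobulin A (IgA), and the secreted products Dmbt1, Tff2, Reg3g, Lcn2, Saa3, Wfdc2, Slpi, Lyz1 and Lyz2. They were picked by symbol from a table of 28828 gene entries, and all 10 were found there, each as 1 entry. Total RNA of lung tissue from C57BL/6 mice was sequenced in 4 wild type libraries and in 3 libraries of mice in which the secretoglobin gene Scgb3a2 is knocked out. After genotype and the number in their titles, the wild type libraries are called WT2, WT3, WT4 and WT6, and the knockout libraries KO3, KO4 and KO5. No treatment is named for either genotype. The sources used here do not give age, sex, housing or the design of the knockout allele. Nor do they say that the libraries stem from separate mice, and any p-value measures the spread between these libraries, which may be technical.

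The set was put together with the difference between the genotypes already known, and Pigr, Dmbt1 and Tff2 in particular were singled out for it. Differences of the 10 transcripts between knockout and wild type are therefore given as a description. The counts of members called are printed once, beside those of all genes, and nothing is read from them. All 10 passed the filter on low counts that left 19832 genes for the genotype comparison. Dmbt1 passed it through the knockout libraries, since its wild type counts were 0, 1, 2 and 7.

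The airway lining protects itself with secretions. Plasma cells beneath the epithelium release IgA as dimers held by the joining chain (Jchain), and the polymeric immunoglobulin receptor made from Pigr carries them through the epithelial cell and is cleaved off with them. The same epithelium secretes proteins that bind bacteria (Dmbt1, Reg3g), split their cell wall (lysozyme), withhold their iron (Lcn2), inhibit proteases (Slpi) or protect the mucus layer (Tff2). Cytokines such as interleukin 17 (IL-17), interleukin 22 and tumour necrosis factor are known to raise many of these transcripts, and Lcn2, Saa3 and Lyz2 are also made by myeloid cells.

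Sequences bear on 2 points of the data. The first is how far reads of the neighbouring lysozyme genes can be told apart. Lyz1 (GRCm38, chromosome 10, 117287797 to 117292868, minus strand) and Lyz2 (chromosome 10, 117277331 to 117282321, minus strand) have coding sequences of 447 bases that differ at 22 positions (95.1% identity). The following stretch, bases 43 to 132 of both coding sequences in the GENCODE M21 transcripts, holds 13 of these differences, printed in capitals.
Lyz1: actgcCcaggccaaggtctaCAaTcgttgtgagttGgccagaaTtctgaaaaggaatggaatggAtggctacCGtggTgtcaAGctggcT
Lyz2: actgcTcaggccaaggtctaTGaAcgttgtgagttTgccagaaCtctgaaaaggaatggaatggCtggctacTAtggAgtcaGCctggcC
Over the whole transcripts, 16.1% of the 50-base windows of Lyz1 also occur in Lyz2, and 2.06% of the 100-base windows do. The sources used here do not state the read length or the treatment of reads with several matches, and the split between this pair is uncertain. None of the other 8 transcripts shared a 50-base window with another of the set.

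The second point concerns promoters of members whose levels went together over the libraries. RefSeq starts on GRCm38 were matched for 8 of the 10 genes. Shown are the 250 bases before the start of Lcn2 and Saa3, which followed each other, and of Pigr and Reg3g, which went less closely with these genes. Capitals mark matches on either strand to the core TTNNGCAA of CCAAT/enhancer binding proteins (C/EBP), to a permissive NF-kB form (GGG and CC with any 5 bases between them) and to the TATA box TATAAA. Overlapping matches are run together.
Lcn2, chr2:32387740-32387989, minus strand: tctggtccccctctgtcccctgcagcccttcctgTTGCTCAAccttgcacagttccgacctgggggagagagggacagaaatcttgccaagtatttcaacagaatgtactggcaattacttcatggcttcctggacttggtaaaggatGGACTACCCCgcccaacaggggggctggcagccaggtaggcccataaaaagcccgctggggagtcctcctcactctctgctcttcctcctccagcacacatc
Saa3, chr7:46715677-46715926, minus strand: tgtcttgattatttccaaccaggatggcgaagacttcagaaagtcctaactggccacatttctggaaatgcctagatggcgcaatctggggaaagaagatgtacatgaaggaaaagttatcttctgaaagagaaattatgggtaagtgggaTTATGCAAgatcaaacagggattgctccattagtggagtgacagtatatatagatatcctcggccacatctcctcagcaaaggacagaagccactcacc
Pigr, chr1:130826434-130826683, plus strand: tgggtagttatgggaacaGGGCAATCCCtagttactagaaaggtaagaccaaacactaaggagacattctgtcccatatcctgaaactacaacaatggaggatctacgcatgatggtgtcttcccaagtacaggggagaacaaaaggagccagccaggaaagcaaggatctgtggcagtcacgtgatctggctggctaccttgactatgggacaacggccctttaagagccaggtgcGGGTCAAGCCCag
Reg3g, chr6:78468875-78469124, minus strand: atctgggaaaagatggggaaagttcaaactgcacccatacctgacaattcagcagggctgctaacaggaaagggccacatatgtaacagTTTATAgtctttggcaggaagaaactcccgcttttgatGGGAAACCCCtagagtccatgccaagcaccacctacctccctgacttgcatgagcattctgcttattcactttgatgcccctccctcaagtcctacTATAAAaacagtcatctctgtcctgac
The C/EBP core was found in Lcn2 (from -216 to -209) and Saa3 (from -99 to -92), as well as in Slpi (from -241 to -234) and Lyz1. Slpi, whose window is not printed, went with Reg3g more closely than Pigr did, so that the core does not separate the patterns. The core is held by 9.56% of the 32851 RefSeq start windows of this length. The NF-kB form was found in Lcn2, Pigr, Reg3g and Wfdc2 and is held by 45.8% of all windows. The TATA box was found in Reg3g (12.4% of all windows). A form of interferon response elements, GAAA and GAAA with any 2 bases between them, was found in Saa3 (2.98% of all windows), and the STAT form TTCNNNGAA in none of the 8 (7.02% of all windows). A match is a stretch of letters and not a binding site.

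Depth was similar throughout, with library totals of 13071262 to 16480006 counts and 25868 to 26885 entries with at least 1 count. Values are given in CPM, the usual depth-scaled counts, with library sizes scaled by the trimmed mean of M-values (TMM). A count of 0 allows up to 3 counts, or 0.181 to 0.222 CPM depending on the library. The targeted gene Scgb3a2 had 195 to 293 CPM in the wild type libraries and 1.21 to 2.68 CPM in the knockout libraries, so that every library matched its label. Markers of alveolar type 2 cells, which define lung tissue, summed to 15640 to 21360 CPM, with 12 of 12 in the table. WT6 and KO5 stood apart from the other 5 libraries in a way that does not follow the genotype: after the group means were taken away their remaining deviations over genes had a correlation of 0.63, and the other pairs of a wild type and a knockout library lay between -0.46 and 0.27. WT2 was also distant from the rest by the chi-square of library pairs over its degrees of freedom. This was 14.6 to 24.5 between WT2 and any other library, and 4.67 to 8.45 among WT3, WT4, KO3 and KO4. The log2 fold changes of Pigr, Dmbt1, Tff2, Reg3g, Slpi, Lcn2 and Wfdc2 are given with and without WT6 and KO5. The comparison used edgeR's quasi-likelihood test over all genes, and a call is an adjusted p (Benjamini-Hochberg) under 0.05.

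The 10 transcripts covered a wide range of levels. Per kilobase of annotated exon, Lyz2 stood first in wild type lung with 2061 ± 316 CPM per kb (SD, n = 4), followed by Wfdc2 (217 ± 42.5) and Lyz1 (181 ± 22.8), whose ranges of mean ± SD overlapped. Lcn2 came next with 44.0 ± 21.4 CPM per kb. Reg3g (10.6 ± 7.05), Pigr (10.5 ± 1.70), Tff2 (9.17 ± 3.04) and Slpi (6.43 ± 1.05 CPM per kb) formed a group in which each overlapped its neighbour. Saa3 (1.22 ± 1.09) and Dmbt1 (0.0250 ± 0.0311 CPM per kb) were lowest. In knockout lung the order was the same except that Tff2 (27.6 ± 19.2 CPM per kb, n = 3) stood just above Pigr (25.5 ± 9.81), within their spread. Together the transcripts made up 0.281% to 0.413% of the counts of a library, and Lyz2 alone gave 67.8% to 82.2% of that share.

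Between the genotypes the set fell into 3 kinds. Pigr, Dmbt1, Tff2 and Lcn2 were higher in every knockout library than in any wild type library. Reg3g, Saa3 and Slpi had higher means in knockout lung with values that overlapped those of wild type, and Wfdc2, Lyz1 and Lyz2 had nearly equal means. Of all tested genes, 2.11% lay higher without overlap and 1.61% lower, against 4 and 0 of the 10. The median log2 fold change (knockout over wild type) of the 10 was 1.04, and that of all tested genes was -0.0068. None of the 10 was called by edgeR, where 0.0353% of all genes were, and 4 (the same that did not overlap) had an unadjusted p under 0.05, as had 2.87% of all genes. DESeq2 called Pigr and Tff2 (0.237% of its tested genes). A fit with the title number as a replicate block called 5 of the 10 (0.706% of all genes). Its genotype difference rests on WT3, WT4, KO3 and KO4 alone, and the sources used here do not say that these numbers pair the libraries. With a term for WT6 and KO5, Pigr, Dmbt1 and Tff2 were called (0.146% of all genes). Without this pair of libraries Pigr was called (0.0701% of the genes tested there). Because the set was chosen on this contrast, nothing is read from these counts.

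**Figure D1:**
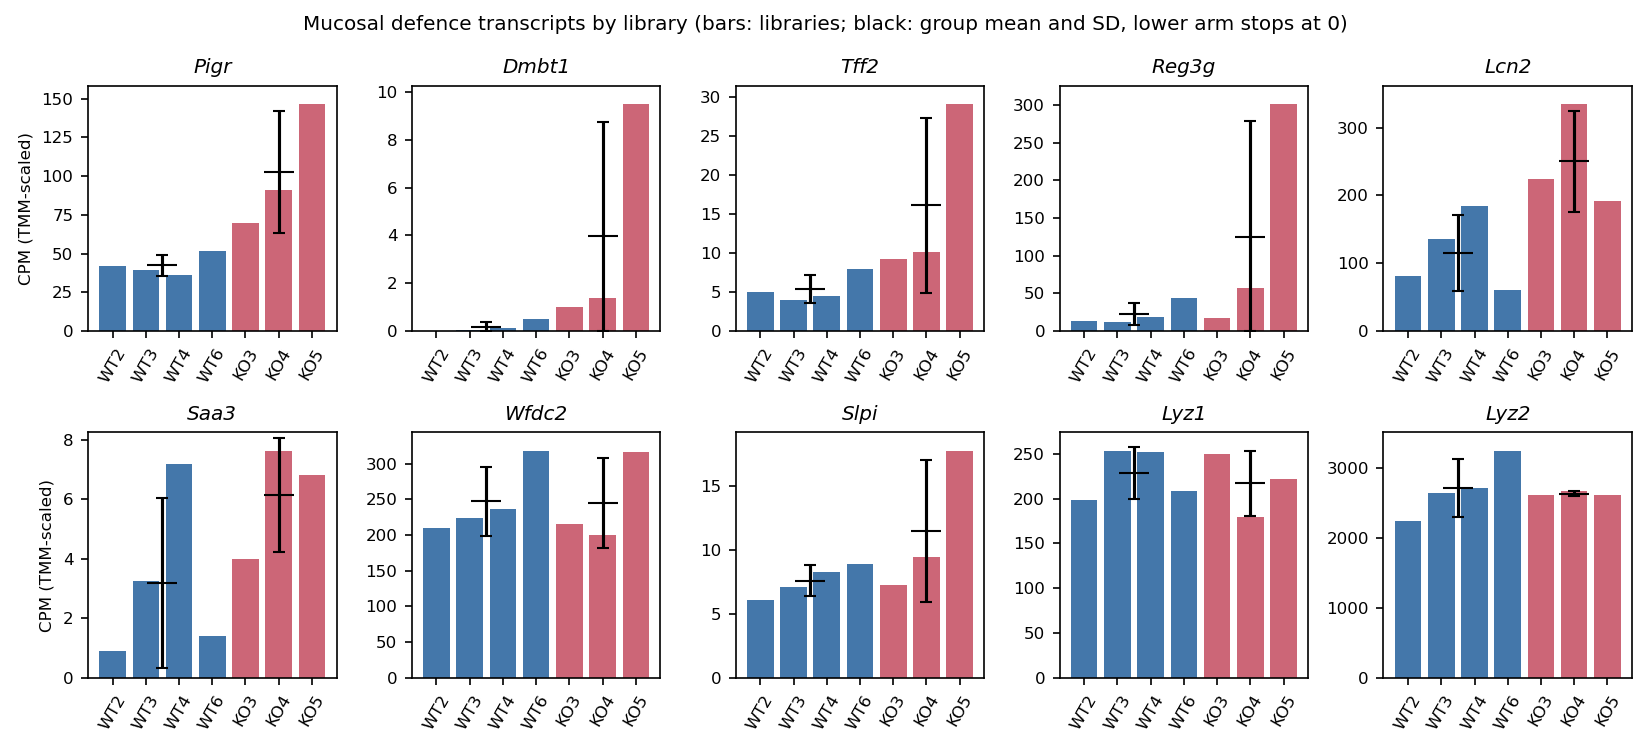
CPM (TMM-scaled, linear axes from 0) of the 10 transcripts in the 4 wild type (blue) and 3 knockout (red) libraries, with the group mean and SD in black. Pigr, Dmbt1, Tff2 and Lcn2 have all knockout bars above all wild type bars, and KO5 holds the highest bar of Pigr, Dmbt1, Tff2, Reg3g and Slpi.

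Pigr (chromosome 1, 130826684 to 130852249, plus strand) had the smallest SE of the 4 transcripts without overlap. In WT2, WT3, WT4 and WT6 it reached 41.9, 39.6, 36.0 and 51.9 CPM, compared with 69.9, 91.1 and 146 CPM for KO3, KO4 and KO5. The groups did not overlap, with the lowest knockout value 1.35-fold above the highest wild type value. The means were 42.4 ± 6.83 CPM (SD, n = 4) and 102 ± 39.5 CPM (SD, n = 3), and the log2 fold change was 1.27 ± 0.23 (SE). Leaving out KO5 gave a log2 fold change of 0.93, and leaving out WT6 as well gave 1.04.

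Tff2 encodes a trefoil peptide that is secreted with mucus and aids repair of the epithelium (chromosome 17, 31141049 to 31144282, minus strand). Its level was 5.001, 4.02, 4.44 and 7.95 CPM in WT2, WT3, WT4 and WT6, while KO3, KO4 and KO5 gave 9.19, 10.1 and 29.0 CPM. KO3 lay only 1.16-fold above WT6, the highest wild type library, and KO5 stood 3.16-fold above KO3. The log2 fold change was 1.59 ± 0.43 (SE) over all libraries. It was 0.86 when KO5 was left out and 1.11 when WT6 was left out as well.

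Dmbt1 encodes a large scavenger receptor cysteine-rich glycoprotein of mucosal secretions that binds bacteria (chromosome 7, 131032053 to 131121630, plus strand). It was close to the limit of detection in wild type lung, with counts of 0, 1, 2 and 7 in WT2, WT3, WT4 and WT6, and had 15, 22 and 131 counts in KO3, KO4 and KO5. In CPM this was at most 0.492 for wild type and 1.01, 1.40 and 9.49 for knockout lung, without overlap. The log2 fold change of 4.48 ± 1.10 (SE) moved to 2.79 without KO5 and to 5.73 without WT6. With both left out it was 4.04, and with a term for the pair 4.17. Its gene region overlaps that of Fgfr2 on the opposite strand, but the annotated exons of both share 0 bases, and Fgfr2 had 213 ± 22.4 and 197 ± 28.7 CPM.

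For Pigr, Tff2 and Dmbt1 the knockout libraries took the order KO3, KO4, KO5 from lowest to highest. In wild type lung WT6 was the highest library for each.

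Reg3g encodes a secreted lectin that kills Gram-positive bacteria (chromosome 6, 78466269 to 78468872, minus strand). WT2, WT3, WT4 and WT6 gave 13.98, 12.2, 19.2 and 44.3 CPM, and the values of KO3, KO4 and KO5 were 17.4, 56.9 and 301 CPM. The groups overlapped, since KO3 lay below WT4 and WT6. The log2 fold change of 2.48 ± 1.05 (SE) became 0.74 when KO5 was left out and 1.31 when WT6 was left out as well. KO5 was 17.3-fold above KO3, the widest range within the knockout group among the 10 transcripts.

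Slpi encodes a secreted inhibitor of neutrophil proteases with antimicrobial activity (chromosome 2, 164354070 to 164389095, minus strand). WT2, WT3, WT4 and WT6 gave 6.09, 7.09, 8.29 and 8.86 CPM, whereas KO3, KO4 and KO5 reached 7.23, 9.42 and 17.7 CPM. KO3 lay within the wild type range. The log2 fold change was 0.60 ± 0.28 (SE), 0.14 without KO5 and 0.23 with WT6 left out as well, so that most of the difference in means came with that library.

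Lcn2 encodes lipocalin 2, which binds the iron carriers of bacteria (chromosome 2, 32384633 to 32388252, minus strand). Its level was 80.8, 136, 184 and 60.1 CPM in WT2, WT3, WT4 and WT6, while KO3, KO4 and KO5 gave 225, 334 and 192 CPM. The groups did not overlap, but KO5 lay only 1.04-fold above WT4. The log2 fold change was 1.12 ± 0.40 (SE), and it ranged from 0.85 without KO4 to 1.44 without WT4. With WT6 and KO5 left out it was 1.07. WT6 and KO5 were the lowest library of their groups, unlike in Pigr, Tff2 and Dmbt1, where they were the highest.

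Saa3 encodes an acute phase serum amyloid A protein made locally in tissues (chromosome 7, 46711998 to 46715700, minus strand). WT2, WT3, WT4 and WT6 gave 0.904, 3.26, 7.18 and 1.41 CPM, against 3.99, 7.64 and 6.81 CPM for KO3, KO4 and KO5. The groups overlapped, with WT4 above KO3 and KO5. Its wild type libraries spanned a 7.94-fold range, and its log2 fold change of 0.97 ± 0.61 (SE) became 1.72 without WT4 and 0.64 without WT2.

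Wfdc2 encodes a small whey acidic protein domain protein of airway secretory cells (chromosome 2, 164562413 to 164568510, plus strand). Its mean was 247 ± 48.4 CPM over the 4 wild type and 244 ± 62.9 CPM over the 3 knockout libraries (SD), a log2 fold change of -0.018 ± 0.18 (SE). WT6 (318 CPM) and KO5 (316 CPM) were the highest libraries of their groups, and the other 5 lay between 200.3 and 237 CPM. With that pair left out the log2 fold change was -0.10. The sign of the fold change was positive in 4 of the 14 alternatives, among them scaling by library totals alone.

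The lysozymes cleave the peptidoglycan of bacterial cell walls. In mice, Lyz2 is made by macrophages, other myeloid cells and alveolar type 2 cells, and Lyz1 is the form of Paneth cells of the gut. Lyz2 gave 2236, 2647, 2718 and 3247 CPM in WT2, WT3, WT4 and WT6, against 2616, 2671 and 2614 CPM for KO3, KO4 and KO5. The wild type libraries lay on both sides of the 3 knockout libraries, and the means were 2712 ± 415 and 2634 ± 32.3 CPM (SD). The means of Lyz1 were 229 ± 28.8 and 217 ± 36.0 CPM (SD). Their log2 fold changes were -0.042 ± 0.14 and -0.073 ± 0.14 (SE), less than the spread between libraries. Lyz1 gave 6.04% to 8.75% of the counts of the lysozyme pair in wild type and 6.28% to 8.74% in knockout libraries. The sign was positive for Lyz2 without WT6 and without both WT6 and KO5, and for Lyz1 without KO4. Macrophage and monocyte markers, 14 of 14 in the table, summed to 651 to 844 CPM for wild type and 779 to 863 CPM for knockout libraries, and their part was not tested.

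**Figure D2:**
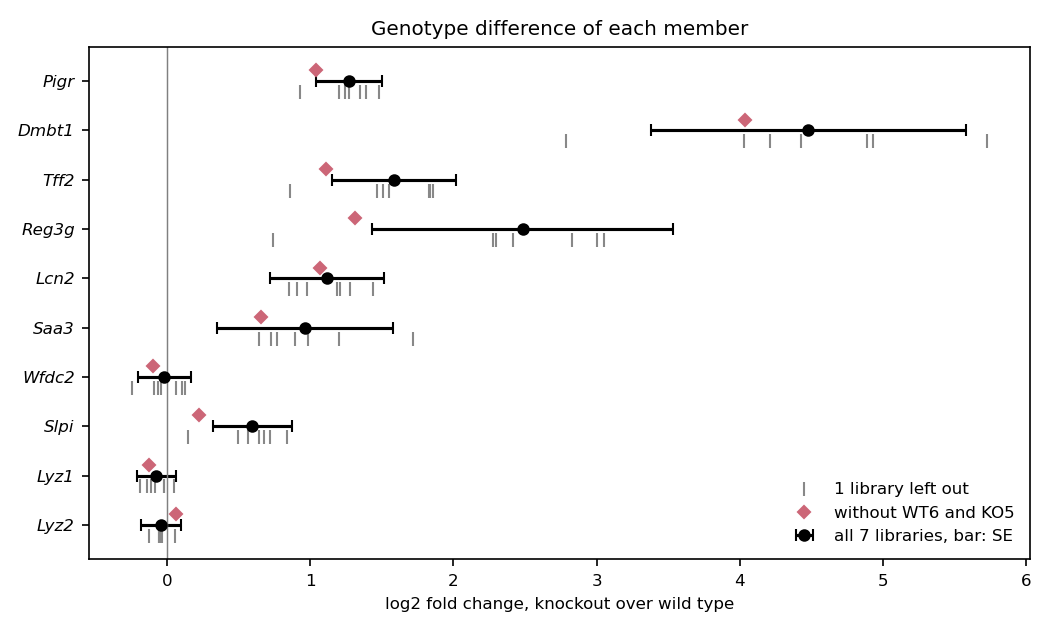
Log2 fold change of each transcript (knockout over wild type, edgeR) with all 7 libraries and its SE, with each library left out in turn (ticks) and without WT6 and KO5 (diamonds). Dmbt1 spans 2.79 to 5.73 and Reg3g 0.74 to 3.05, and Wfdc2, Lyz1 and Lyz2 lie on both sides of 0.

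How the transcripts went together over libraries was described with Pearson's r of log2 CPM, without a test, since the 7 libraries share a genotype difference and the difference of WT6 and KO5. Pigr, Dmbt1 and Tff2 had r between 0.96 and 0.97 over 7 libraries and between 0.91 and 0.94 without KO5, values that carry the genotype difference for which these genes were chosen. In wild type alone r was 0.92 for Pigr and Tff2, 0.77 for Dmbt1 and Tff2 and 0.62 for Pigr and Dmbt1, and that of Dmbt1 with Wfdc2 was 0.98. Wild type values of r rest on 4 libraries. Those of Dmbt1 rest on counts of 0, 1, 2 and 7 and are limited by counting. Reg3g and Slpi were a second pair (0.97, and 0.87 without KO5), close to the first group over all libraries (0.82 to 0.93) and less close without KO5 (0.48 to 0.74). Lcn2 and Saa3 were another pair (0.89 with and without KO5, and 0.90 in wild type alone). Lcn2 had r of 0.49, 0.48 and 0.33 with Pigr, Dmbt1 and Tff2 over 7 libraries, and -0.94, -0.34 and -0.84 within the 4 wild type libraries.

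**Figure D3:**
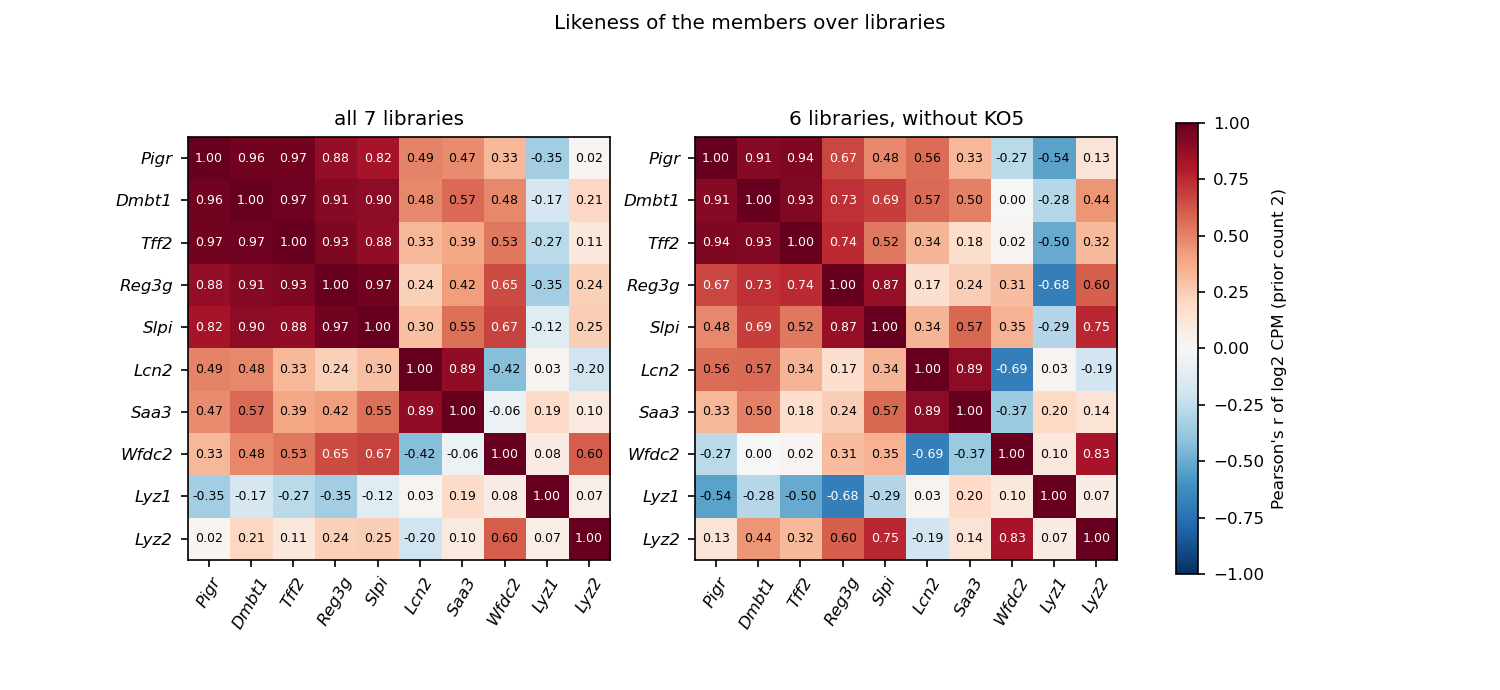
Pearson's r of log2 CPM (prior count 2) between the 10 transcripts over all 7 libraries and over 6 without KO5, from -1 (blue) to 1 (red). Pigr, Dmbt1 and Tff2 stay above 0.9 in both panels, Lcn2 and Saa3 stay at 0.89, and Reg3g drops from 0.88 to 0.67 with Pigr.

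For each transcript, the 3 most similar genes were sought among 14178 others averaging at least 1 CPM, leaving out predicted and clone names. The gene closest to Pigr was Jchain, the joining chain of the IgA dimers that the Pigr product carries (r = 0.993, 0.987 without KO5 and 0.943 in wild type alone). WT2, WT3, WT4 and WT6 gave 8.26, 8.75, 5.70 and 12.2 CPM of Jchain, against 27.0, 72.9 and 313 CPM for KO3, KO4 and KO5. The order of all 7 libraries in Pigr and in Jchain differed only in WT2 and WT3. Next to Pigr came Cd177, a surface glycoprotein known from neutrophils (0.990, and 0.746 in wild type alone), with 2.79 ± 1.13 and 55.6 ± 58.9 CPM. Its levels are set beside those of neutrophil markers below. Cd177 was followed by Ighg2b, a heavy chain gene of immunoglobulin G (IgG) (0.984, and 0.816 in wild type alone), with 4.27 ± 3.71 and 179 ± 204 CPM. Ighg2b reached at most 9.49 CPM in wild type, and went from 23.7 CPM in KO3 over 104 CPM in KO4 to 411 CPM in KO5. The higher antibody transcripts of knockout lung were therefore not limited to IgA.

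Dmbt1 was closest to Foxp3, the transcription factor of regulatory T cells (0.986), the complement protease C1ra (0.983) and Ly6i (0.983). Tff2 was closest to A2ml1, a protease inhibitor of the alpha-2-macroglobulin family (0.987), Ly6i (0.985, or 0.980 without KO5) and Tnfrsf13b, a receptor of B and plasma cells (0.984). The wild type range of A2ml1 was 6.45 to 19.1 CPM, and KO3, KO4 and KO5 gave 16.5, 17.1 and 107.5 CPM. Reg3g was closest to the fatty acid receptor Ffar1 (0.996), a transcript near 1 CPM, and to the cell division genes Uhrf1 (0.981) and Tk1 (0.981). Slpi was closest to the histone gene Hist1h2bj (0.978), Cilp (0.977) and Lpxn (0.973), which had r of 0.928, 0.889 and 0.843 without KO5.

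Lcn2 was closest to Arntl, which encodes the clock transcription factor BMAL1 (0.971, and 0.984 without KO5). Its levels were 4.88, 7.98, 10.5 and 5.06 CPM in WT2, WT3, WT4 and WT6, while KO3, KO4 and KO5 gave 12.8, 17.6 and 8.98 CPM, so that WT4 lay above KO5. Rfx7 (0.970) and the noncoding RNA Morrbid (0.968) followed. Saa3 was closest to Cxcl1, a chemokine that draws neutrophils (0.985, 0.989 without KO5 and 0.987 in wild type alone), then to Map3k1 (0.957) and Cotl1 (0.954).

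**Figure D4:**
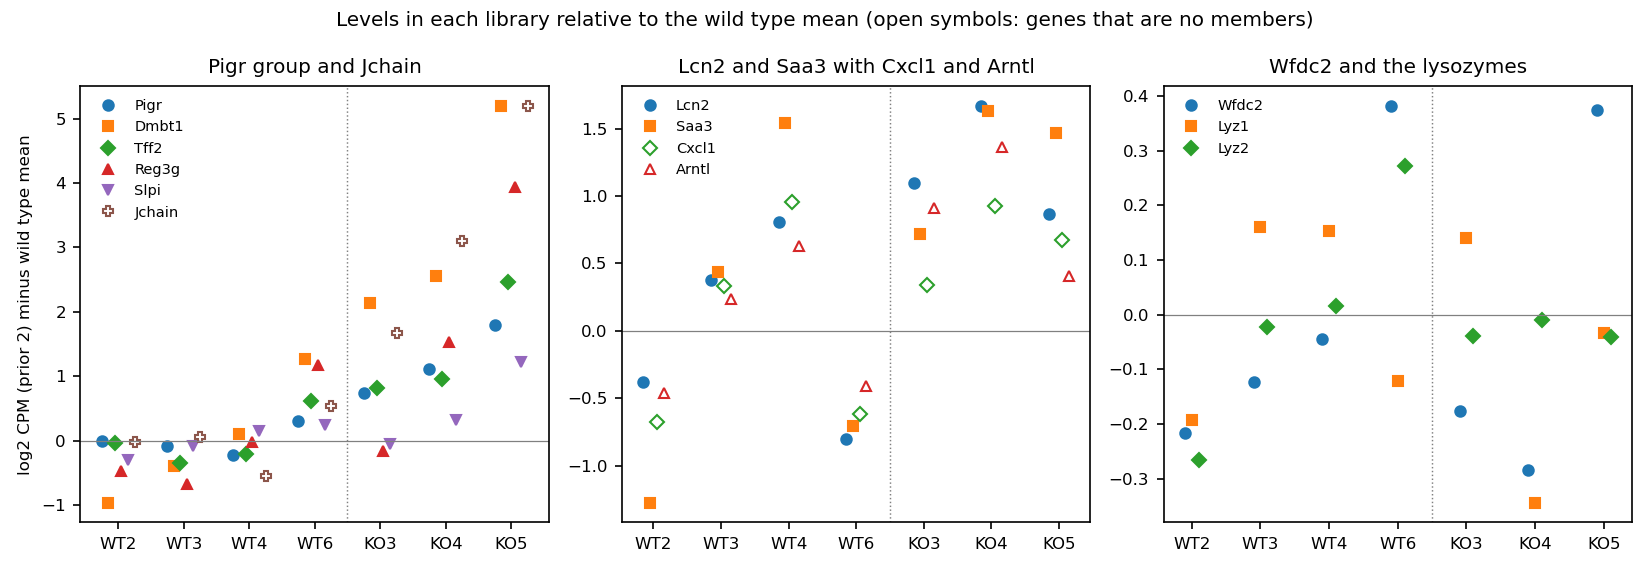
Log2 CPM (prior count 2) minus the wild type mean in each library, for Pigr, Dmbt1, Tff2, Reg3g and Slpi with Jchain, for Lcn2 and Saa3 with Cxcl1 and Arntl, and for Wfdc2, Lyz1 and Lyz2. The left panel peaks in KO5 (Jchain 5.19, Pigr 1.80), the middle panel has WT4 high and WT6 low (Lcn2 0.81 and -0.80), and the right panel stays between -0.34 and 0.38.

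Wfdc2 was closest to Tmem199 (0.994), the ATP synthase subunit Atp5e (0.993) and the Golgi protein Cog2 (0.991). Lyz1 was closest to Rasgef1b (0.990), Artn (0.968) and Tpd52l2 (0.959), and Lyz2 to Tnfaip1 (0.985), Apold1 (0.983) and the proton pump subunit Atp6v0e (0.982). With 14178 candidates and 7 libraries, high values of r are found for any pattern, and they say nothing of shared control.

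Other genes around the set were followed in 7 lists of 174 genes, chosen with earlier results of these data known. Of these, 113 genes passed the filter, and 1 was called (adjusted p under 0.05), against 0.0353% of all genes. Their median log2 fold change was 0.056, with positive values in 70. Of all genes, 2.87% had an unadjusted p under 0.05 in edgeR, and DESeq2 called 0.237% of its tested genes. Because of how the lists were chosen, nothing is read from the counts per list.

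Genes of IgA production and transport gave the highest median of the 7 lists. The constant region Igha ranged from 38.1 to 43.5 CPM in wild type libraries, while KO3, KO4 and KO5 gave 122, 293 and 894 CPM. The light chain Igkc ranged from 26.6 to 42.2 CPM, against 133, 438 and 570 CPM. Fcamr, a receptor for IgA and IgM, ranged from 3.25 to 7.03 CPM, against 7.43, 10.8 and 12.9 CPM. These 3 and Jchain were higher in every knockout library, in the same order KO3, KO4, KO5 as Pigr. The same held for the IgG gene Ighg2b, whose levels are given above, so that this pattern was not particular to IgA. Of 17 tested genes of IgA production and transport, 15 had positive values and the median was 1.01. None was called by edgeR, with adjusted p of 0.406 (Igkc), 0.947 (Fcamr), 0.965 (Igha) and 0.9998 (Jchain). At an unadjusted p under 0.05 there were 11 (2.87% of all genes were), and DESeq2 called 3 (Igha, Jchain and Igkc), against 0.237% of its tested genes. Without WT6 and KO5 the log2 fold changes of Igkc, Igha, Jchain and Fcamr were 2.81, 2.40, 2.72 and 0.79. In bulk lung tissue, more cells of a type and more RNA per cell cannot be told apart.

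Among 20 tested genes of other secreted airway antimicrobials, 12 had positive values, with a median of 0.11. Spink5, a protease inhibitor gene on the chromosome of Scgb3a2, was the 1 gene called. It fell from 7.25 ± 1.54 to 0.0724 ± 0.125 CPM, with an edgeR adjusted p of 0.000843 and a log2 fold change of -6.57 ± 0.55 (SE). The acidic chitinase Chia1 had 38.3 ± 4.02 and 57.8 ± 5.24 CPM (adjusted p = 0.347), without overlap. The peptidoglycan recognition protein Pglyrp1 had 4.21 ± 1.44 and 11.6 ± 8.05 CPM, and complement C3 had 743 ± 110 and 974 ± 148 CPM (both with an adjusted p of 0.9998). At an unadjusted p under 0.05 there were 5, and DESeq2 called Chia1 and Spink5. Bpifa1, a secreted protein of the upper airway epithelium named here after its values were seen, was lower in every knockout library. WT2, WT3, WT4 and WT6 gave 103, 82.2, 90.7 and 595 CPM, against 19.9, 12.9 and 75.01 CPM for KO3, KO4 and KO5. Its log2 fold change of -2.60 was not called (edgeR adjusted p of 0.9998), but it was called with a term for WT6 and KO5 (0.146% of all genes were), without this pair (0.0701% were) and with the replicate block. Lactoferrin (Ltf), named after its values were seen, had 18.7 to 35.2 CPM in WT2, WT3, WT4, KO3 and KO4, and 85.7 and 151 CPM in WT6 and KO5.

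Relatives of the set by protein family gave 10 tested genes, 8 with positive values and a median of 0.21. None was called by edgeR or DESeq2, and 2 had an unadjusted p under 0.05. Wfdc17 had 1.83 ± 0.35 and 3.05 ± 0.56 CPM and Wfdc1 30.1 ± 3.57 and 24.2 ± 2.79 CPM, both without overlap and in opposite directions. Wfdc21 (log2 fold change 0.58) and the scavenger receptor Marco (0.37) overlapped. The acute phase relatives of Saa3, Saa1 and Saa2, had at most 7 counts in a library.

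The cytokine Il17a was at the limit of detection. It had 0 counts in all 4 wild type libraries, each with the limit given above, and 3, 2 and 8 counts in KO3, KO4 and KO5. It did not pass the filter and was not tested. Of 19 tested genes of the list of IL-17 and interleukin 22 inputs and epithelial targets, 11 had positive values (median 0.039). None was called by edgeR, 1 had an unadjusted p under 0.05, and DESeq2 called Ccl20. Ccl20, a chemokine for lymphocytes, ranged from 0.192 to 0.241 CPM in wild type libraries, while KO3, KO4 and KO5 gave 0.811, 1.85 and 4.13 CPM. Its adjusted p was 0.151 in edgeR, for a log2 fold change of 3.33 ± 0.56 (SE). The groups overlapped for the NF-kB partner Nfkbiz (log2 fold change 0.25) and the RNase Zc3h12a (0.36).

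The other lists differed little in the medians of their tested genes. Of 21 tested NF-kB, tumour necrosis factor and interleukin 1 genes, 11 had positive values (median 0.047), and none was called by edgeR or DESeq2, with 1 at an unadjusted p under 0.05. Tumour necrosis factor (Tnf) had 1.14 ± 0.20 and 1.59 ± 0.20 CPM without overlap. Its lowest knockout value (1.42 CPM) lay just above its highest wild type value (1.39 CPM), at low counts. The log2 fold changes of Il1a, Il6ra and Rel were 0.65, 0.23 and 0.26. Of 12 tested type 2 genes, 5 had positive values (median -0.047), again with none called by either tool and 1 at an unadjusted p under 0.05. The receptor Il1rl1 had 6.34 ± 0.95 and 4.77 ± 0.24 CPM, and Arg1, Retnla and Il13ra1 had log2 fold changes of -0.31, 0.22 and -0.081. Chil4 of this list, named after its values were seen, did not pass the filter and was not tested. Its counts were 1, 1, 3 and 4 in WT2, WT3, WT4 and WT6, and 3, 31 and 26 in KO3, KO4 and KO5. Of 14 tested proteases, inhibitors and binding partners, 8 had positive values (median 0.096), and none was called by either tool or had an unadjusted p under 0.05. The inhibitor of neutrophil proteases Serpinb1a (0.38), Lrp2 (-0.22), Cxcr4 (0.17) and Mmp8 (0.35) were its leading genes by p.

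Marker genes of cell types that could supply these transcripts were summed in each library. Goblet cell markers, 11 of 12 in the table, summed to 335 to 461 CPM in wild type and to 361, 581 and 914 CPM for KO3, KO4 and KO5, ranked as in Pigr, Tff2, Dmbt1 and Reg3g. Muc5b, which is also in the submucosal gland list, gave 214 to 310 CPM of these sums in wild type and 248, 324 and 491 CPM in knockout libraries. Plasma cell markers, 12 of 12, summed to 467 to 523 CPM for wild type and 671, 1226 and 2324 CPM in knockout libraries. Igha, Igkc and Jchain gave 894, 570 and 313 CPM of the sum in KO5. Of 11 tested plasma cell markers 10 had positive log2 fold changes (median 1.01), but those of Xbp1, Prdm1 and Sdc1 were 0.018, 0.056 and -0.043. Submucosal gland markers, 6 of 12, summed to 233 to 346 CPM and to 280, 353 and 644 CPM, most of it Muc5b and Ltf. Club cell markers, 12 of 12, were led by Scgb1a1 and summed to 14000 to 20120 CPM and 11870 to 20140 CPM, with the lowest sums in WT6 and KO5. Ciliated cell markers, 12 of 12, summed to 608 to 705 and 560 to 671 CPM. The part of these cells in the results was not tested.

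Neutrophil markers, 13 of 13, summed to 41.6 to 114 CPM for wild type and 56.4 to 176 CPM for knockout libraries, highest in WT6 and KO5. For Lcn2, WT6 and KO5 were the lowest library within their genotype, but KO5 lay above every wild type library. Ltf gave 39.1% to 85.8% of the neutrophil marker sums. Without Ltf the sums were 14.1 to 29.3 CPM and 25.1 to 28.3 CPM, no longer highest in WT6 and KO5. Cd177, which is not in this list, stayed at or below 4.36 CPM in wild type. It rose from 12.8 CPM in KO3 to 123 CPM in KO5, where the sums without Ltf were 25.7 and 25.1 CPM. Which cells supplied Cd177 was not tested. The defining marker Ly6g had 1 count in WT6 and 0 elsewhere. Basal and squamous markers, 8 of 12, summed to 3.64 to 12.2 and 2.57 to 11.6 CPM, again highest in WT6 and KO5. Mesothelial markers, 12 of 12, summed to 1078 to 1546 and 1415 to 1745 CPM, of which C3 gave 52.6% to 63.6%, and without C3 to 471 to 692 and 598 to 635 CPM. Markers of stomach and duodenum, where Tff2, Dmbt1 and Reg3g are abundant, summed to 15.1 to 21.5 and 19.3 to 20.8 CPM, 10 of 12 in the table, and the stomach gene Gkn1 had 0 counts in all 7 libraries.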

How the data were processed

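The authors deposited raw counts of reads per gene, as whole numbers, for 7 lung libraries. Per the submitters' processing notes the tools were STAR and DESeq2 and the build mm10, without versions or roles, and the sources used here give no counting program, annotation or strand setting. Per the labels' protocols, RNA was prepared with Trizol and a standard Illumina library preparation. Genes were compared between 4 wild type and 3 knockout libraries with edgeR 4.0.16 (R 4.3.3): filterByExpr, TMM scaling and the quasi-likelihood test (robust, two-sided), with no term besides genotype, adjusted by the Benjamini-Hochberg method over 19832 genes. SEs are the absolute log2 fold change divided by the root of the F statistic. Log2 CPM used a prior count of 2. On simulated counts of 19410 genes with 200 changed, the same steps found 77% of the 2-fold and 96% of the 4-fold differences, and 6.49% of calls were false. The simulated spread followed the trend over expression levels, without the pattern of WT6 and KO5. Changes were set only in genes averaging at least 1 CPM. These shares therefore do not hold for genes with a wider spread, and a missing call does not show a small difference. The members and lists were chosen with earlier results of these data known. Named are the 10 members, Scgb3a2, up to 4 genes of each of 7 lists with the smallest p, and the 3 genes with the highest r to each member, among genes averaging at least 1 CPM, leaving out predicted and clone names. One gene that this rule names is not reported here. Genes outside this rule (Ltf, Bpifa1, Il17a, Chil4, Saa1, Saa2, Ly6g, Gkn1, Muc5b, Scgb1a1, Fgfr2, Muc5ac, Clca1, Gp2, Agr2, Fcgbp, Galnt6, Spdef, Bpifb1, Sytl2, Xbp1, Prdm1 and Sdc1) were named for their cell type, position or values. Alternatives were other scalings, no filter, DESeq2 1.42.0, a replicate block, a term for WT6 and KO5, their removal, and each library left out in turn. Positions and exon lengths came from GENCODE M21 (GRCm38, also called mm10), which may not be the annotation used for counting, and promoter windows from RefSeq (GRCm38.p6). No library was a repeat of another: chi-square over degrees of freedom was at least 4.67 for every pair. Without molecular identifiers, limits from counts cover counting error only.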

Additional observations from a re-analysis of the deposited data

How the results depend on the processing

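Over all genes edgeR called 7, and 3 to 41 with 1 library left out: 3 without WT2, WT3 or WT4 and 41 without KO3. It was 47 with DESeq2 (41 higher, 6 lower), 29 with a term for WT6 and KO5, 14 without this pair, and 140 with the title number as a replicate block. Of the list genes 1 was called, and 1 to 4 with 1 library left out (4 without KO3). It was 2 without the filter, 6 with DESeq2, 11 with the replicate block, 5 with the term for WT6 and KO5 and 2 without this pair. For the replicate block only numbers 3 and 4 occur in both genotypes, so that its genotype difference rests on WT3, WT4, KO3 and KO4 alone. In deviations from the group means KO3 had a correlation of 0.267 with WT3 and of 0.266 with WT4. WT6 and KO5 shape these deviations, so that near-equal values cannot decide whether the numbers pair the libraries. The median log2 fold change of the 10 transcripts, 1.04, was 0.80 to 1.32 with 1 library left out and 0.48 with the replicate block. Of 140 values of single transcripts under alternatives, 136 moved by less than the spread between libraries, and 4 moved by more: Dmbt1, Tff2 and Reg3g without KO5 and Slpi with the replicate block (0.11). The values of r without KO5 and in wild type alone were alternatives chosen after seeing the data. Values of r that moved were, in wild type alone, Cd177 and Ighg2b with Pigr, Ly6i with Dmbt1 (0.870) and Lpxn with Slpi (0.747), and Lpxn without KO5 (0.843). At this depth Dmbt1, Il17a and other transcripts under 10 counts are limited by counting. The causes of these changes were not tested.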

Other observations

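Of 10 tested goblet cell markers, whose sums are given above, 8 had positive log2 fold changes. The 4 with an unadjusted p under 0.05 in edgeR (2.87% of all genes had one) follow. The secreted mucin Muc5ac ranged from 2.81 to 4.37 CPM in wild type libraries, while KO3, KO4 and KO5 gave 4.66, 17.8 and 79.1 CPM. Clca1, a secreted goblet cell protein, ranged from 1.02 to 4.71 CPM, against 3.11, 108 and 117 CPM, so that KO3 lay within the wild type range. Gp2, counted in this list although it also marks cells that sample antigen in mucosal epithelium, ranged from 0.422 to 0.814 CPM. KO3, KO4 and KO5 gave 2.10, 3.69 and 32.1 CPM of Gp2. Agr2, needed for mucin folding, had 0.958 to 1.85 CPM and 1.62, 2.16 and 6.59 CPM. Each of the 4 had an adjusted p of 0.9998 in edgeR, and DESeq2 called Clca1 and Gp2 (0.237% of its tested genes were called). Of the other 6, Fcgbp (0.98), Muc5b (0.45), Galnt6 (0.17), Spdef (0.0011), Bpifb1 (-0.0066) and Sytl2 (-0.026, all as log2 fold changes), the groups overlapped for each.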
